A study of Mus musculus with 2 samples.

Results

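The 8 genes described here encode the proteins whose loss causes lysosomal storage of cholesterol or sphingolipids: Npc1, Npc2, Lipa, Smpd1, Asah1, Hexa, Gm2a and Psap. They were chosen by symbol, by a rule that uses no measured value, though with earlier results of these data known. They are 8 of the 43346 mouse genes in the deposited tables. Each symbol matched 1 gene identifier. Their RNA was measured by RNA-seq in Purkinje cells, the large inhibitory output neurons of the cerebellar cortex, which were cut out by laser capture. The study holds a single group of 2 libraries, pool 1 and pool 2, each made from 50 cells of wild-type C57Bl6 animals, adult males of 8 months (the source label names the strain B6NCrl), with ERCC spike-in RNA added. Both pools carry the same donor identifier but different biosample identifiers, so the spread between them may be technical. A Smart-seq protocol is linked for pool 2, and how the library of pool 1 was prepared is not stated. There is no other condition, so every difference below is between 2 libraries and carries no p-value.

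Lysosomal lipid breakdown runs in steps. Lysosomal acid lipase (Lipa) frees cholesterol from its esters, the soluble carrier Npc2 takes it up inside the lysosome, and the membrane protein Npc1 moves it out. Acid sphingomyelinase (Smpd1) turns sphingomyelin into ceramide and acid ceramidase (Asah1) turns ceramide into sphingosine, while beta-hexosaminidase A, whose alpha subunit is Hexa, trims the ganglioside GM2 once the Gm2a protein has lifted that lipid out of the membrane. Psap encodes prosaposin, which is cut into the saposins A to D that present other sphingolipids to their hydrolases. Purkinje cells are among the first neurons to be lost when Npc1, Npc2 or Smpd1 is missing.

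The libraries held 23830685 and 27907662 expected counts, the estimated reads assigned to each gene, in pool 1 and pool 2. The 8 genes together took 14052 and 17755 of them, and the spike-ins took 1.40% and 0.940%. Levels are given in TPM, the deposited relative abundance of transcripts after correction for length, so they can be compared between genes. The files also give a lower and an upper bound for each TPM, whose confidence level is not stated, and these are called deposited intervals below. They do not always contain the TPM. In pool 1, Pvalb was at 6629 TPM with bounds of 6412 and 6489, and Gpr37l1 at 450 TPM with bounds of 432 and 444. For each of the 8 genes the TPM lay inside the interval in both pools. The cell type label was checked against its markers: 8 of 8 Purkinje cell markers reached 1 TPM in both pools, with a summed level of 20434.4 and 20030.5 TPM, led by Pvalb and Pcp2. Markers of other cells were present too. Summed levels in pool 1 and pool 2 were 2277 and 1952 TPM for Bergmann glia and astrocytes (8 of 8 markers at 1 TPM or more in both pools), 223 and 216 TPM for oligodendrocytes (7 of 7), 105 and 135 TPM for granule cells (5 of 5), and 95.7 and 126 TPM for endothelial cells and pericytes (6 of 7). Those for microglia were 27.1 and 43.8 TPM (6 of 9), and those for blood were 651 and 2274 TPM (5 of 5). No marker of these lists was at 0 in either pool. These cells also have lysosomes, and the part of their RNA in the levels below was not tested. Fewer cells of a type and less RNA per cell cannot be told apart in such pools.

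All 8 genes were expressed in both pools, against a background of 28.8% of all mouse genes and 51.7% of protein-coding genes that reached 1 TPM in both. Psap led with 57.7 TPM in pool 1 and 54.1 in pool 2 (55.9 ± 2.52, mean ± SD, n = 2). Smpd1 stood beside it at 52.1 and 59.2 TPM (55.7 ± 5.06). Asah1 (49.4 and 36.1 TPM), Gm2a (38.1 and 39.2), Npc2 (26.04 and 32.5) and Hexa (26.4 and 26.4) formed a middle range. Npc1 (8.67 and 6.05 TPM) and Lipa (6.39 and 5.28) were the lowest. The ranges of the 2 pools did not overlap at 3 steps in this order, from Smpd1 to Asah1, from Gm2a to Npc2 and from Hexa to Npc1. Psap and Smpd1, Asah1 and Gm2a, Npc2 and Hexa, and Npc1 and Lipa each overlapped, so the order within those pairs was not set beyond the spread. The median of the 8 mean levels was 34.0 TPM, beside 12.3 TPM over the 11092 protein-coding genes at 1 TPM or more in both pools. Psap ranked at place 2041 among protein-coding genes and lay above 81.6% of those 11092, whereas Lipa ranked at 7651 and lay above 31.0%.

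**Figure D1:**
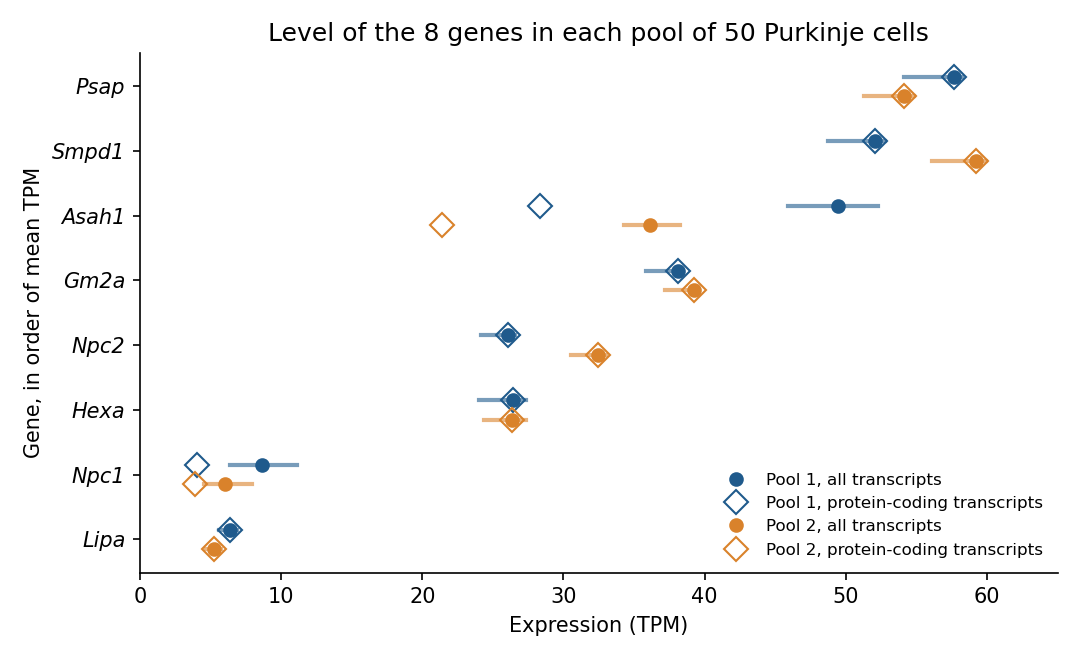
TPM (horizontal axis) of each gene (vertical axis) in pool 1 (blue) and pool 2 (orange), with the deposited interval as a line. Filled circles take all transcripts and open diamonds the protein-coding transcripts only, and circle and diamond lie apart for Asah1 and Npc1.

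The lipase at the start of the cholesterol route and the transporter at its end were the least abundant of the 8. Lipa (chromosome 19, 34492318 to 34527474 on GRCm38) was estimated from 364 and 381 reads, and its levels of 6.39 and 5.28 TPM gave 5.84 ± 0.785 TPM (SD, n = 2). The deposited intervals, 5.62 to 6.90 and 4.67 to 5.71 TPM, overlapped. Its coding transcript Lipa-201 carried 86.8% of the gene in pool 1 and 100% in pool 2. A second coding transcript, Lipa-202, was at 0.85 TPM in pool 1 and listed at 0 in pool 2, and the intervals of Lipa-202 overlapped as well.

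Npc2 (chromosome 12, 84754562 to 84773152), the soluble carrier, was 3.003 times the level of the membrane transporter Npc1 in pool 1 and 5.36 times in pool 2. Its 26.04 and 32.5 TPM came from 1634 and 2582 reads on 1 annotated transcript, with deposited intervals of 24.1 to 26.6 and 30.6 to 32.99 TPM that did not overlap. On the log2(TPM + 1) scale, which understates ratios of low genes, Npc2 was 0.31 higher in pool 2. It stayed higher in pool 2 under each scaling that was tried.

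Npc1 (chromosome 18) was at 8.67 and 6.05 TPM, a log2 difference of -0.46, with overlapping intervals of 6.35 to 11.1 and 4.55 to 7.92 TPM. The gap sat in 1 short transcript. The full coding transcript Npc1-201, of 5224 bases, was level between the pools at 4.03 and 3.93 TPM, from 410 and 507 reads. Npc1-203 is annotated as a processed transcript of 352 bases with no coding sequence. It begins with an exon of its own in the first intron and then runs through exon 2 into exon 3. It was at 3.99 TPM in pool 1 and 1.56 TPM in pool 2, but these values rest on 20.0 and 9.94 reads, and its intervals of 1.61 to 6.46 and 0.00 to 3.33 TPM overlapped. Because TPM divides reads by length, those 20.0 reads gave the short transcript 46.1% of the gene's TPM in pool 1, and the 9.94 reads gave it 25.8% in pool 2. Transcripts under 500 bases held at least 25% of the gene's TPM in both pools in 4.18% of 8622 protein-coding genes that also have a transcript of 2000 bases or more, and Npc1 was among them. With coding transcripts only, the log2 difference of Npc1 was -0.03, and Npc2 was 6.46 and 8.26 times Npc1. Npc1-202, a retained-intron transcript of 5756 bases, was at 0.65 and 0.55 TPM. Npc1-201 shares 511 exonic bases with Rmc1, at 20.7 and 24.2 TPM, and 90 with Gm15956, at 0.88 and 1.58 TPM. Both genes lie on the opposite strand, and Npc1-203 shares no exonic bases with them. Without strand information, reads in the shared bases cannot be assigned to 1 gene with certainty.

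The 2 enzymes that form and remove ceramide, Smpd1 and Asah1, came after Psap in the order over all transcripts. With protein-coding transcripts only, Asah1 was at 24.9 ± 4.92 TPM (SD, n = 2), and its mean fell behind those of Gm2a, Npc2 and Hexa. Its 28.3 TPM in pool 1 and 21.4 TPM in pool 2 overlapped the ranges of Npc2 and Hexa. Of these places, only that behind Gm2a lay beyond the spread. Smpd1 (chromosome 7, 105554360 to 105558389) has 1 annotated transcript, with 2390 and 3447 reads. Its deposited intervals were 48.7 to 52.8 TPM in pool 1 and 56.1 to 60.0 TPM in pool 2, which did not overlap, and the log2 difference was 0.18 with pool 2 higher. Asah1 (chromosome 8, 41340197 to 41374773), the ceramidase of the next step, went the other way. It was at 49.4 TPM in pool 1 (interval 45.9 to 52.3) and 36.1 TPM in pool 2 (34.3 to 38.3), a log2 difference of -0.44 from 2284 and 2184 reads. Smpd1 stayed higher in pool 2 under every scaling, and Asah1 stayed lower under every scaling except that to the spike-ins, where it was 0.22 higher.

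A large share of Asah1 RNA was assigned to a transcript that is not coding. The coding transcript Asah1-201, of 2773 bases, was at 28.3 and 21.4 TPM, or 57.3% and 59.1% of the gene. Asah1-203, annotated as a retained-intron transcript of 2154 bases, was at 18.2 TPM in pool 1 (interval 14.7 to 22.3) and 14.2 TPM in pool 2 (11.6 to 17.2). It made up 36.8% and 39.3% of the gene (38.1 ± 1.80%, SD, n = 2), so its share was close in both pools, unlike that of Npc1-203. Its estimate rests on 741 and 735 expected counts. Of its 2154 bases, 413 are not in Asah1-201, and reads in the shared bases were divided by estimate. Asah1-202, annotated for nonsense-mediated decay, was at 2.53 TPM in pool 1 and listed at 0 in pool 2, with overlapping intervals. Non-coding transcripts held at least 25% of the gene's TPM in both pools in 18.7% of 11445 protein-coding genes, and among the 8 genes in 2, Asah1 and Npc1.

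The part of Asah1-203 that sets it apart is its first exon. It starts 413 bases before exon 6 of Asah1-201, inside the intron, and then follows the same exons as Asah1-201, ending 464 bases short of its last exon's end. The sequences around the start of exon 6 (chr8:41349550-41349624, minus strand) are shown from the GENCODE M21 transcripts, because a read can be assigned to 1 transcript with certainty only where they differ. Lower case in Asah1-201 is exon 5 followed by exon 6, and capitals in Asah1-203 are the last 24 intron bases before exon 6.
Asah1-201: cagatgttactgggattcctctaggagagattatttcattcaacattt
Asah1-203: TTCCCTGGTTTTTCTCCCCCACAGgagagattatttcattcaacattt
The capitals are a pyrimidine-rich run that ends in AG, the form of an ordinary splice acceptor. The files do not hold reads, so how many crossed either junction was not analysed here.

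The genes of the GM2 step were level between the pools in TPM. Hexa (chromosome 9, 59539540 to 59565109) was at 26.4 TPM in both pools, with intervals of 24.04 to 27.3 and 24.4 to 27.4 TPM from 925 and 1173 reads, and its log2 difference was -0.00. Gm2a (chromosome 11, 55098115 to 55113029), the activator that presents GM2 to this enzyme, was at 38.1 and 39.2 TPM, from 3048 and 3977 reads, with overlapping intervals of 35.8 to 38.4 and 37.2 to 39.6 TPM. Gm2a was thus 1.44 and 1.49 times Hexa, a ratio of 1.47 ± 0.0299. In GENCODE M21 the 1 annotated transcript of Hexa shares 255 exonic bases with Tmem202 on the opposite strand, which was at 3.10 and 2.58 TPM. This transcript has 1996 bases in M21 and a deposited length of 1865, so part of the overlap may lie outside the quantified form. The exons of the 6 genes other than Hexa and Npc1 overlapped no other annotated gene.

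Psap (chromosome 10, 60277627 to 60302597) took 21.8% and 20.9% of the summed level of the 8 genes, which was 265 TPM in pool 1 and 259 TPM in pool 2. The 2 lipid-presenting proteins, Psap and Gm2a, made up 36.2% and 36.1% of that sum. At the level of the gene the pools were close, with intervals of 54.2 to 58.3 and 51.3 to 54.8 TPM that overlapped and a log2 difference of -0.09.

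The transcripts of Psap changed places between the pools. Psap-205, of 2657 bases, was at 45.1 TPM in pool 1 (interval 37.2 to 48.0) and 24.4 TPM in pool 2 (18.2 to 27.5). Psap-203, of 2564 bases, was at 12.6 TPM in pool 1 (7.15 to 16.8) and 29.7 TPM in pool 2 (23.5 to 32.9). The intervals of the pools did not overlap for either transcript. Psap-205 held 78.1% of the gene in pool 1 and 45.1% in pool 2, while Psap-203 held 21.9% and 54.9%. The estimated reads were 2287 and 1571 for Psap-205 and 618 and 1844 for Psap-203. A shift of at least 25 points in the share of pool 1's leading transcript was seen in 8.46% of 8924 genes with 2 or more transcripts and a mean of at least 1 TPM, and in 2.18% of 4853 such genes at 10 TPM or more, limits that were chosen after the values were seen. Psap was the only one of the 4 genes with several transcripts (Psap, Asah1, Npc1, Lipa) to pass it, and the other 3 had the same leading transcript in both pools. The other coding transcripts, Psap-201, Psap-202 and Psap-204, were listed at 0 in both pools.

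**Figure D2:**
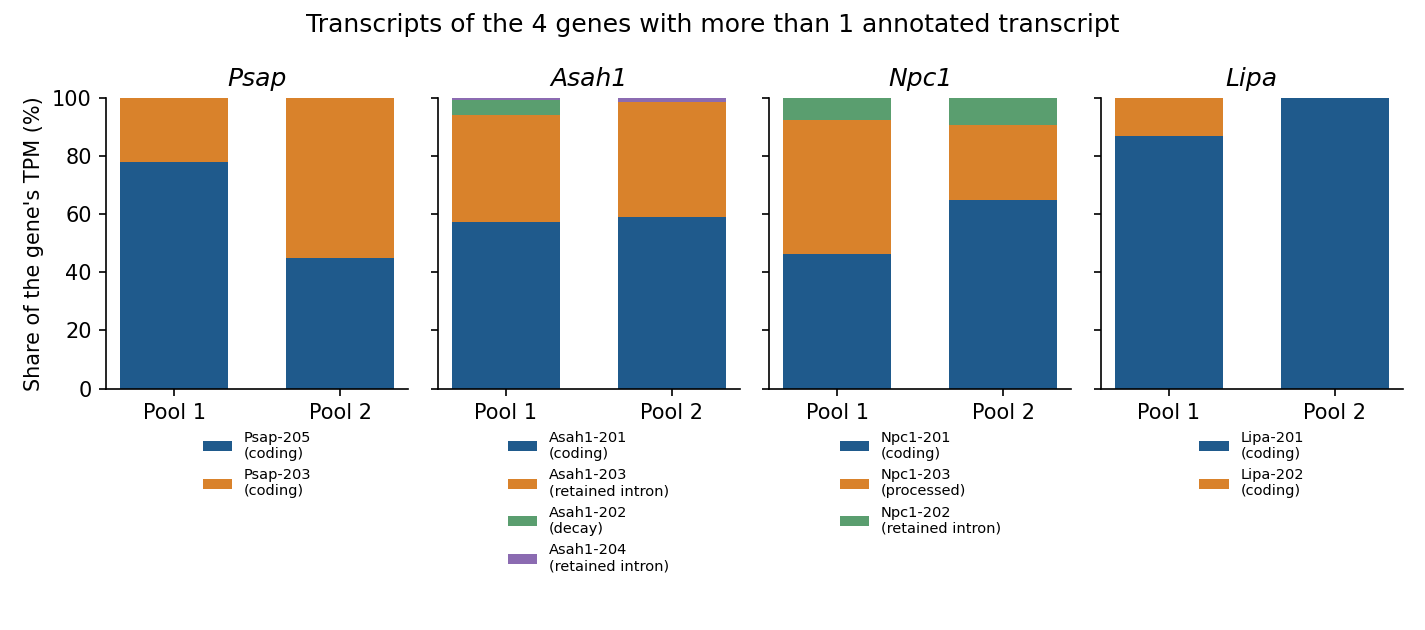
Share of each gene's TPM (%, vertical axis) given to each annotated transcript in pool 1 and pool 2, for the 4 genes with several transcripts. The Psap bars change from 78.1% to 45.1% Psap-205, while Asah1-201 stays at 57.3% and 59.1%.

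Psap-205 and Psap-203 differ in 2 places. The first is the start: Psap-205 begins at position 60277628 and Psap-203 at 60284461, in the first intron of Psap-205 and 6833 bases downstream. The second is exon 8 of Psap-205 (chr10:60297537-60297545), an exon of 9 bases in the stretch that encodes saposin B, which Psap-203 skips without a change of reading frame. Which of the 2 places the reads that set the estimates came from cannot be told apart here. The sequences across this exon are shown because they are what separates the 5 annotated coding transcripts at that point, from GENCODE M21, with the inserted bases in capitals between 24 bases of exon 7 and 24 bases of the next shared exon.
Psap-205: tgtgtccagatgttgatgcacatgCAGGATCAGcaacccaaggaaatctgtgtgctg
Psap-204: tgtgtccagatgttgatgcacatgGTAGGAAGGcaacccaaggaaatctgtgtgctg
Psap-201: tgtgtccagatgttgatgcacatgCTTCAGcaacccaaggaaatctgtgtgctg
Psap-203: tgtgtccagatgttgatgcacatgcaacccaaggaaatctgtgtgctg
Psap-202 has the same sequence here as Psap-203. The 9-base form of Psap-205 and the form with no insert took all of the Psap reads, and the forms of Psap-204 (9 other bases) and Psap-201 (6 bases) took none by estimate.

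**Figure D3:**
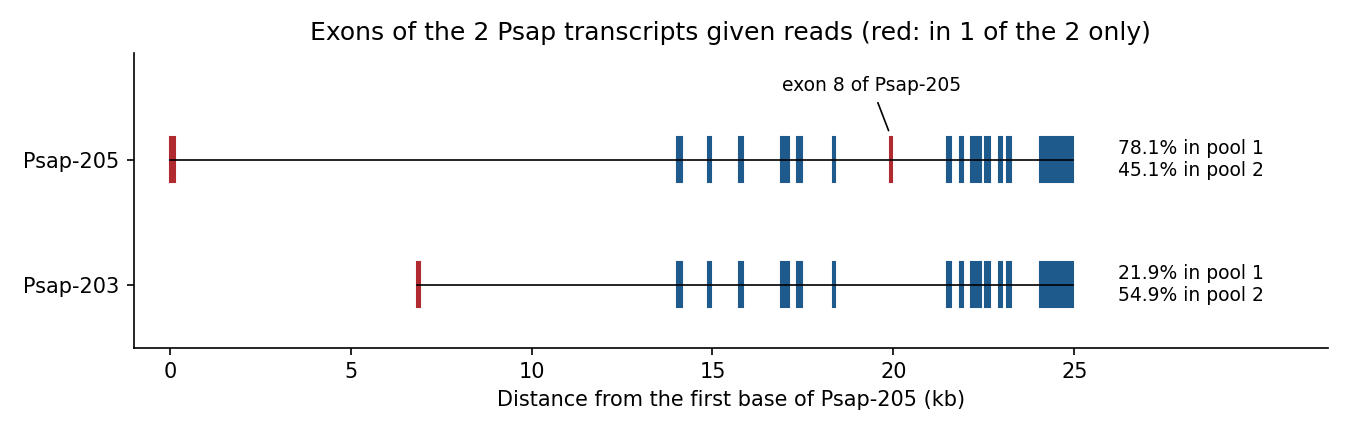
Exons of Psap-205 and Psap-203 (boxes) by distance in kb from the first base of Psap-205, with each transcript's share of the gene's TPM at the right. Red marks the 2 first exons and the 9-base exon 8, which is drawn wider than scale to be seen.

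The bases before the 2 starts also look unlike each other. RefSeq windows (GRCm38.p6) of 250 bases before to 50 bases after a start were found for 6 of the 8 genes, with 7 starts in all, since Psap had 1 at each of the starts above. The 250 bases upstream are shown for both, plus strand, with each CG in capitals, because CG density is a common mark of promoters used in many cell types. They are chr10:60277378-60277627 before Psap-205 and chr10:60284211-60284460 before Psap-203.
Psap-205 start: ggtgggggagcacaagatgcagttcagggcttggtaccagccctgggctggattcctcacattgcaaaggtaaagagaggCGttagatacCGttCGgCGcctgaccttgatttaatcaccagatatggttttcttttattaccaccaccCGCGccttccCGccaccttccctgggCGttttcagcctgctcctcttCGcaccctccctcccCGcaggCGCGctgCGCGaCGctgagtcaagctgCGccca
Psap-203 start: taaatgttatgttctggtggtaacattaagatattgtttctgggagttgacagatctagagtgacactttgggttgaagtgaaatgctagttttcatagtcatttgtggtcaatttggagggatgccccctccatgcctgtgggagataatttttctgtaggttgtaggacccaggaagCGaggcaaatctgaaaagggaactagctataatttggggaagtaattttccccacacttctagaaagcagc
The upstream bases held 16 CG before Psap-205 and 1 before Psap-203. Over the whole window the counts were 23 and 3, and the GC content was 62.0% and 43.3%. The median was 7 CG over all 32851 windows in the table and 20 over the 11904 windows of genes detected in both pools. The other windows of the set held 21 (Gm2a), 21 (Npc2), 16 (Smpd1), 10 (Hexa) and 7 (Lipa).

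Of 3 motifs searched on both strands, GGGCGG, the core bound by Sp1-type factors, was in 6 of the 7 windows, those of all 6 genes but not the window of Psap-203. It is in 35.7% of all windows and in 61.7% of those of detected genes. CCAAT was in 4 of the 7, beside 37.4% and 37.9%. CACGTG, the core of the element read by the lysosomal regulator Tfeb, was in none of the 7, beside 7.15% of all windows and 10.04% of those of detected genes. A match is a description of these letters only, and a missing match says nothing of sites elsewhere.

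Between the pools the 8 genes lay within the range of other genes. None of the 8 differed by 1.5-fold on the log2(TPM + 1) scale, against 11.5% of 13210 mouse genes with a mean of at least 1 TPM. On that scale 5 of the 8 were lower in pool 2, where 58.4% of the 13210 were lower, and the median difference was -0.05 for the 8 and -0.07 for all 13210. The extremes were Npc2 (0.31) and Npc1 (-0.46). Scaling to the 51 spike-ins instead of to the TPM total moved the median of all genes to 0.59 and that of the 8 to 0.61, since it adds the same constant to every gene. Asah1 (0.22) and Lipa (0.42) were higher in pool 2 on the spike-in scale and lower under the other scalings. Hexa, Psap and Npc1 also changed sign among the scalings, while Npc2, Smpd1 and Gm2a were higher in pool 2 under each. The deposited intervals of the pools did not overlap for 3 of the 8 (Smpd1, Asah1 and Npc2), against 39.0% of the 13210 genes. Marker sums also differed between the pools. They were higher in pool 2 for blood (651 and 2274 TPM), microglia (27.1 and 43.8 TPM), granule cells (105 and 135 TPM) and endothelial cells and pericytes (95.7 and 126 TPM). They were lower in pool 2 for Bergmann glia and astrocytes (2277 and 1952 TPM) and for oligodendrocytes (223 and 216 TPM). Purkinje cell markers summed to 20434 and 20030 TPM, with 6 of 8 lower in pool 2 and a median log2 difference of -0.40. Pvalb (0.30) and Pcp2 (0.06), the highest in level, were higher in pool 2. The median difference was -0.26 for Bergmann glia and astrocytes, -0.26 for oligodendrocytes, and positive for the other cell types. The part of these cells in the differences of the 8 genes was not tested.

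**Figure D4:**
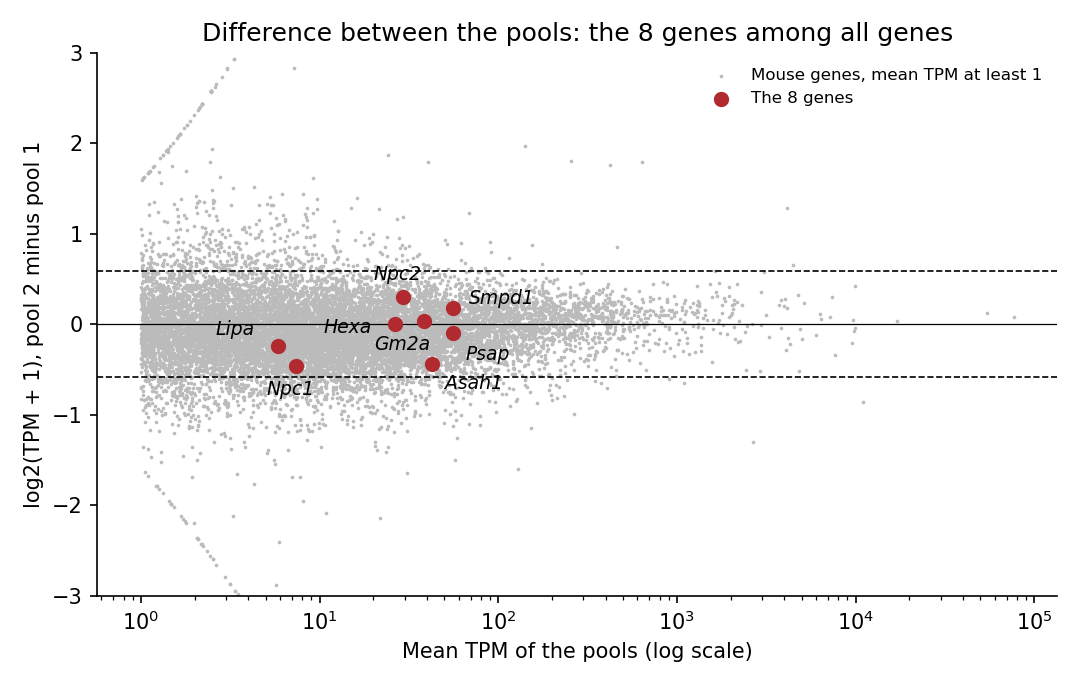
Difference in log2(TPM + 1), pool 2 minus pool 1 (vertical axis), against mean TPM (log scale) for mouse genes with a mean of at least 1 TPM (grey) and the 8 genes (red). Dashed lines mark 1.5-fold, all 8 genes lie between them, and 20 grey genes fall outside the axis.

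The other genes of the pathway were read from 6 lists. The 11 other genes of lysosomal sphingolipid breakdown were all at 1 TPM or more in both pools, as the 8 genes were, with none past 1.5-fold (background 4.26% higher and 7.24% lower in pool 2) and a median log2 difference of 0.01. Ctsa, which protects neuraminidase and beta-galactosidase in the lysosome, was the highest of them at 47.7 and 47.9 TPM. The median level of that list was 15.1 TPM, beside 34.0 TPM for the 8.

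Genes of breakdown outside the lysosome had lower levels. Of 11 such genes 8 reached 1 TPM in both pools, none passed 1.5-fold, and the median level was 1.95 TPM. The alkaline ceramidase Acer3 was at 28.6 and 20.5 TPM, below Asah1 over all transcripts in each pool. The coding transcripts of Asah1 alone were at 28.3 and 21.4 TPM, close to the gene total of Acer3. The neutral sphingomyelinase Smpd2 was at 15.0 and 14.7 TPM, below Smpd1 in each pool. Gba2, the glucosylceramidase outside the lysosome, was at 15.0 and 13.95 TPM. The neutral sphingomyelinases Smpd5 (0.65 and 0.75 TPM) and Smpd3 (0.16 and 0.38 TPM) stayed below the threshold, and the ceramidase Acer1 was listed at 0 in both.

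Of 24 synthesis genes 22 reached 1 TPM in both pools, with a median level of 13.05 TPM and a median log2 difference of -0.15. Degs1, which puts the double bond into ceramide, was at 165 and 131 TPM. Sptssa, the small subunit of the first enzyme of the route, was at 91.7 and 79.2 TPM, and St8sia5, a sialyltransferase of complex gangliosides, was at 80.9 and 75.5 TPM. Past 1.5-fold, 2 were lower in pool 2 and 1 was higher, against a background of 7.24% lower and 4.26% higher. St8sia1, the GD3 synthase, went from 9.46 to 5.68 TPM (log2 difference -0.65). Ugt8a, which makes the galactosylceramide of myelin, went from 8.13 to 4.37 TPM (-0.77), beside oligodendrocyte marker sums of 223 and 216 TPM. Cers1, a neuronal ceramide synthase, went from 1.31 to 2.48 TPM (0.59). Gal3st1, which adds sulfate to galactosylceramide, was under the threshold at 0.74 and 0.48 TPM.

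Among 15 genes of cholesterol export and traffic, 13 reached 1 TPM in both pools, and the median log2 difference was -0.36. Only 1 was past 1.5-fold, against a background of 11.5% either way. Lamp1, a lysosomal membrane glycoprotein, was at 233 and 226 TPM, and Osbpl1a, a sterol-binding protein of late endosomes, was at 151 and 149 TPM, both far above Npc1. Abcg1, a sterol exporter, was at 87.2 and 61.5 TPM. Gramd1b, which takes plasma membrane cholesterol to the endoplasmic reticulum, was the 1 gene past the fold, at 71.2 and 41.2 TPM (-0.77). Its relative Gramd1c was under the threshold at 0.38 and 0.60 TPM.

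The sorting receptors and tagging enzymes that bring these proteins to the lysosome, with the proposed prosaposin receptors, were all detected (8 of 8). Of these 8, 1 was past 1.5-fold, against a background of 11.5% either way. Gpr37l1, a glial receptor for which prosaposin fragments have been proposed as ligands, was the highest at 450 and 527 TPM, and Bergmann glia markers were present in both pools as given above. The mannose 6-phosphate receptor M6pr was at 76.9 and 72.7 TPM, and Gnptg, a subunit of the enzyme that makes the mannose 6-phosphate tag, was at 65.6 and 74.2 TPM. Sort1, the sortilin receptor that carries prosaposin and acid sphingomyelinase to the lysosome, went from 20.2 TPM to 12.4 TPM (-0.67), while Psap differed by -0.09 and Smpd1 by 0.18.

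Of 5 regulators of lysosomal genes 3 reached 1 TPM in both pools, and none passed 1.5-fold. The repressor Zkscan3 was at 19.9 and 17.5 TPM, Tfe3 at 3.86 and 4.02 TPM, and Mitf at 3.38 and 2.22 TPM. The deposited intervals of Mitf were wide, 3.13 to 77.6 TPM in pool 1 and 2.07 to 60.1 TPM in pool 2, so its level is poorly set. Tfeb, the activator best known for this gene network, was at 0.70 and 0.32 TPM from 14 and 12 reads, and its deposited intervals lay above both estimates. Tfec was listed at 0 in pool 1 and was at 0.02 TPM in pool 2.

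**Figure D5:**
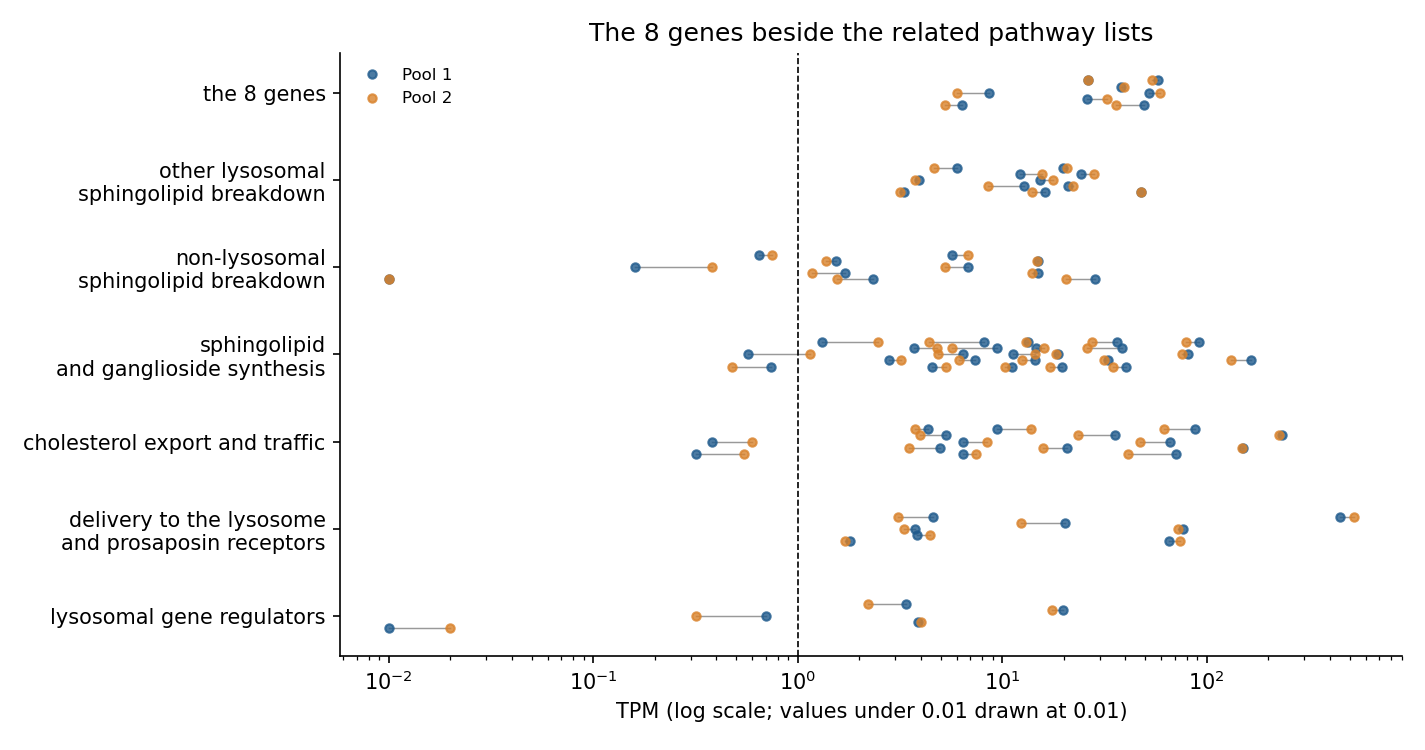
TPM (log scale, horizontal axis) of each gene in pool 1 (blue) and pool 2 (orange), joined by a line, for the 8 genes and the 6 related lists. The dashed line is 1 TPM, and the 8 genes and the 11 other lysosomal breakdown genes lie to its right in both pools.

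By distance in log2(TPM + 1) over the 2 pools, the protein-coding genes nearest to Psap were Slc3a2 (57.3 and 54.5 TPM, distance 0.0143), Exosc7 (57.6 and 54.8 TPM, 0.0180) and Rdh14 (58.0 and 53.3 TPM, 0.0232). Those nearest to Lipa were Adhfe1 (6.35 and 5.25 TPM, 0.0104), Tenm4 (6.36 and 5.22 TPM, 0.0150) and Mis18a (6.35 and 5.22 TPM, 0.0159). With 2 libraries, such a match is one of level and of a single difference.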

How the data were processed

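Per the file headers and the notes deposited with each library, the authors aligned reads to the GENCODE M4 transcriptome on mm10 and estimated each library by itself. No source used here names the aligner, the quantifier, a version or a strand setting. Expected counts, as deposited, are reads estimated per gene or transcript with no scaling. The deposited TPM values are length-corrected and scaled by the authors to 1 common total per library, spike-ins included. The deposited percent gives each transcript's share of its gene, and the bounds for TPM were taken as deposited.

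Names, transcript types and coordinates came from GENCODE M21 (GRCm38), where 42462 of the 43346 genes had a name. For the 8 genes the transcript lengths of the releases differed only for Hexa-201, Npc2-201 and Smpd1-201, which M21 makes longer. Detection was at least 1 TPM in both pools, differences are log2(TPM + 1) of pool 2 minus pool 1 with a pseudocount of 1, and 1.5-fold was the limit for a count of genes. Background counts use mouse genes with a mean of at least 1 TPM. With 1 group no test was possible. Expected counts were rounded only for the scalings of edgeR 4.0.16 (TMM) and DESeq2 1.42.0 in R 4.3.3. The computation of differences was tested on simulated data. The rest ran in Python 3.11.15 with statsmodels 0.14.6 for the lowess fit, scipy 1.17.1, pandas 2.3.3, numpy 2.4.6 and, for plots, matplotlib 3.10.9.

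Named genes are the 8, and from each pathway list the 3 highest, those under 1 TPM in both pools and those past 1.5-fold, and the 3 nearest genes of the highest and the lowest of the 8. The 8 genes and the lists were chosen with earlier results of these data known. Some genes of the lists are not reported here by name, and 1 was left out of the microglia sum. The files record no molecular identifiers, so intervals cover estimation and counting error only. Alternatives were other thresholds, pseudocounts and scalings, a lowess fit on effective length, posterior means and, added after the data were seen, protein-coding transcripts only. The replicate numbers come from the labels, and no sample was left out.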

Additional observations from a re-analysis of the deposited data

How the results depend on the processing

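Of 33 values recomputed under other settings, 29 stayed within the tolerance (0.1 on the log2 scale, 1.5 times for counts, 1 SD for shares) and 4 moved. Some of the 29 could not have moved. Leaving out a pool cannot change the detection of all 8 genes or take a share past 1 SD. Dropping the filter on low values leaves the same 8 genes and so the same median. For the order, only the count of steps beyond the spread was compared, not the places of the genes. The median log2 difference of the 8 genes was 0.065 with CPM of expected counts and 0.61 on the spike-in scale, where 4 of the 8 passed 1.5-fold, as did 50.9% of all genes. The share of Psap was 20.0% by expected counts, which are not corrected for length. All 8 were detected in each pool alone and at 5 TPM, and 6 were at 10 TPM. Leaving out a pool gave a Psap share of 20.9 to 21.8%, and no difference between pools can be computed from 1 pool. With protein-coding transcripts only, a setting chosen after seeing the data, Asah1 fell behind Hexa in mean level and Npc1 behind Lipa. The ranges of Asah1 and Hexa overlapped, and 4 steps of the order lay beyond the spread of the pools in place of 3. No paired analysis was possible because the study has 1 group. Depth limits Npc1-203, with 20.0 and 9.94 reads.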
